A study of Saccharomyces cerevisiae with 3 samples.

Results

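The genes described here encode enzymes of the tricarboxylic acid (TCA) cycle, the glyoxylate shunt and gluconeogenesis in the budding yeast Saccharomyces cerevisiae. Others encode acetyl-CoA synthetase and the regulators of retrograde signalling. The 33 genes were taken as a fixed list, chosen with earlier results of these data known. They were matched by symbol or alias to the annotation of the array, which named 5203 genes in all. A spot was found for 32 of them, and no named spot stood for PYC2. Of the 33, 26 had a value on all 3 arrays, 5 on 2 arrays (CIT3, PCK1, FBP1, ACS1 and RTG2), and MLS1 on 1 array. Each two-colour array compared cells of strain S288C that had been exposed to 5 mM 2-aminobenzimidazole for 2 h, labelled with Cy5, against untreated cells grown for the same 2 h, labelled with Cy3. Both cultures grew at 25 °C in rich medium with glucose and were in exponential growth when the compound was added. The compound came from a 500 mM stock, and an effect of the stock's solvent was not tested apart from that of the compound. 2-Aminobenzimidazole is the amine from which benzimidazole carbamate fungicides derive, and the labels name no genetic change in the strain. S288C is known to carry a transposon insertion in HAP1, a haem-dependent activator of respiratory genes, which limits it as a model for the control of these genes.

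Each value is the log2 of the treated signal over the control signal as the authors normalised it, so 1 is a 2-fold excess in treated cells. The log base and the direction are not written in the deposited table. Base 2 is the customary choice, and treated over control is likely because the treated RNA is in the first channel. With the opposite direction, higher and lower would exchange places. The treated RNA was always in Cy5, and a gene's dye bias and its response cannot be told apart. A value is a share of the messenger RNA on its array, not an amount per cell, and no absolute level can be given. The arrays differed in coverage: 41.1% of the named genes had no value on array 1, the array whose title carries an unexplained letter H, against 159 genes without a value on array 2 and 45 on array 3.

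As background, the TCA cycle in the mitochondrial matrix oxidises acetyl-CoA and supplies 2-oxoglutarate for glutamate synthesis. The glyoxylate shunt by-passes its decarboxylating steps, so that carbon from acetate or ethanol can be turned into sugar by the gluconeogenic enzymes. In glucose medium the shunt and gluconeogenic genes are repressed, and their induction on non-fermentable carbon depends on the Snf1 kinase and the factors Cat8 and Adr1. Retrograde signalling is a path from mitochondria to nucleus in which Rtg2 releases the Rtg1 and Rtg3 factors from inhibition by Mks1. Its best known target is CIT2, and in cells with poor respiration it also maintains CIT1, ACO1, IDH1 and IDH2.

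After exposure, 5 of the 26 genes with 3 values rose and 0 fell (limma, adjusted p below 0.05). The 5 were CIT2, IDP1, IDP2, MDH2 and PYC1, with means between 2.03-fold and 2.97-fold. Over all 3039 genes tested, 8.36% were called higher and 9.64% lower, and the 5 make up 19.2% of these 26 genes. At an unadjusted p below 0.05, 7 of the 26 were higher, LSC1 and LSC2 being the added ones, and 1, ACS2, was lower. In the same fit 16.3% of all genes were higher and 19.8% lower at that unadjusted level. The median mean ratio of the 26 genes was 0.20, against -0.04 over all tested genes. The median of the means was 0.42 without array 1 and 0.46 without array 2. Array medians of the 26 were 0.23, 0.40 and 0.52 on arrays 1, 2 and 3. The count depended on each array: with array 1 or array 3 left out, 0 of the 26 and 0 of all genes passed in limma. At an unadjusted p below 0.05, 6 of the 26 were higher and 1 lower without array 1. Over all 3039 genes 288 were higher and 347 lower in that fit. Without array 3, 4 of the 26 were higher and 0 lower, beside 304 higher and 411 lower of the 3039. The means of the 5 called genes could not fall below 0 in these fits, since each gene was above 0 on every array. They were 1.40 without array 1 and 1.68 without array 3 for CIT2, and 1.33 and 1.44 for IDP1. Without array 2 the calls of CIT2 and IDP2 were lost, those of IDP1, MDH2 and PYC1 stood, and SDH1 (higher) and MDH1 (lower) were added.

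**Figure D1:**
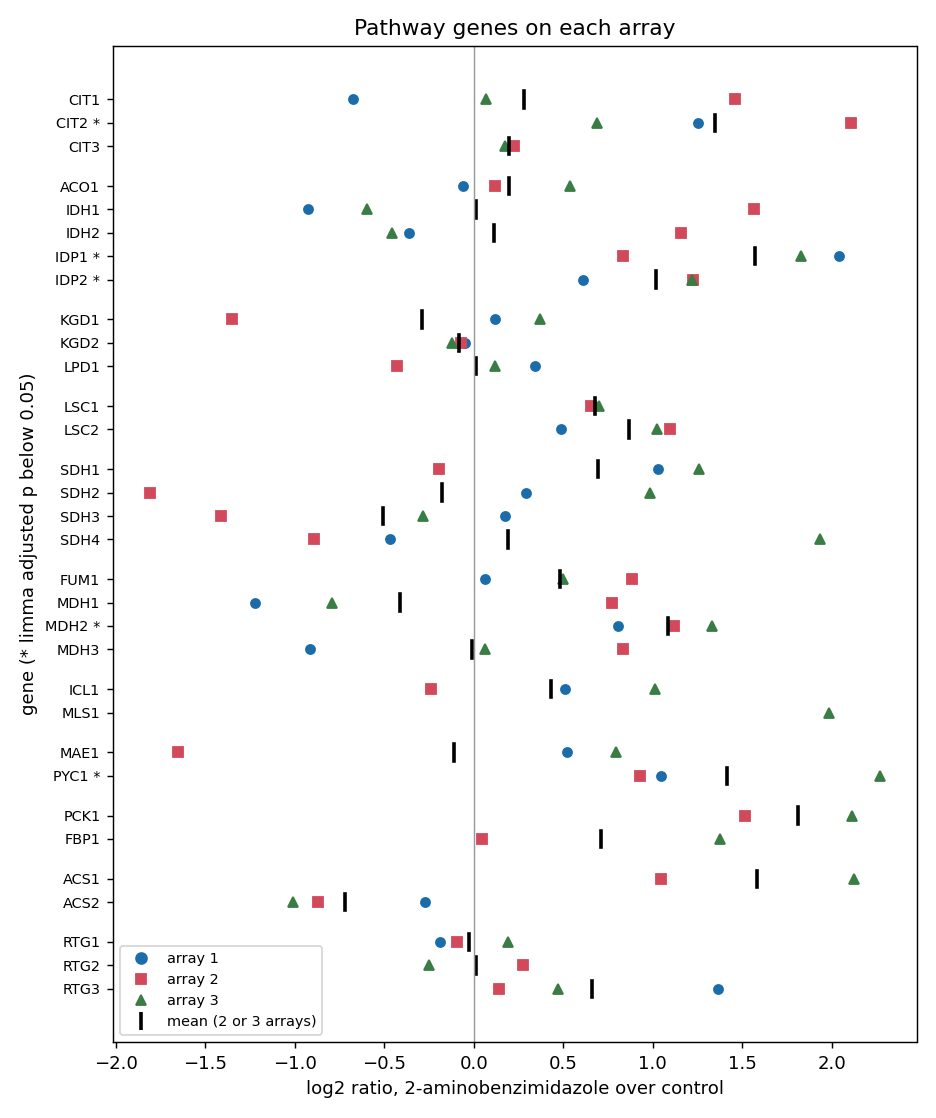
Log2 ratios of treated over control (x axis) for the 32 genes with a spot (y axis, grouped by reaction), with 1 symbol per array and a black bar at the mean of 2 or 3 arrays. The 5 genes marked with a star lie to the right of 0 on every array, while the succinate dehydrogenase subunits and MDH1 have symbols on both sides of 0.

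Citrate synthase joins acetyl-CoA and oxaloacetate. CIT2 (YCR005C), the peroxisomal form, had log2 ratios of 1.25, 2.11 and 0.69 on arrays 1, 2 and 3. It was above 0 on every array and highest on array 2. Its mean of 1.35 ± 0.72 (SD, n = 3) was a 2.55-fold rise with an adjusted p of 0.0352, which became 0.0568 without array 2. CIT1 (YNR001C), the mitochondrial form of the cycle, had -0.67, 1.46 and 0.07. Its arrays disagreed in sign, and its mean of 0.28 ± 1.08 did not pass (adjusted p = 0.667). CIT3 (YPR001W), a minor mitochondrial form that also makes methylcitrate, had 0.22 and 0.17 on arrays 2 and 3.

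The next steps convert citrate through isocitrate to 2-oxoglutarate. ACO1 (YLR304C), aconitase, had -0.06, 0.12 and 0.54. IDH1 (YNL037C) and IDH2 (YOR136W) encode the 2 subunits of the NAD-dependent isocitrate dehydrogenase. IDH1 had -0.92, 1.56 and -0.59, and IDH2 had -0.36, 1.16 and -0.46. Both subunits were below 0 on arrays 1 and 3 and more than 2-fold above it on array 2, so their means of 0.02 ± 1.35 and 0.11 ± 0.91 describe no array. Without array 2 the mean of IDH1 was -0.76 (adjusted p = 0.106) and that of IDH2 was -0.41 (adjusted p = 0.351). The NADP-dependent enzymes behaved more evenly. IDP1 (YDL066W), the mitochondrial enzyme, had 2.04, 0.84 and 1.83. It had the highest mean among the 26 genes, 1.57 ± 0.64, a 2.97-fold rise (adjusted p = 0.0231) that ranked above 95.3% of all tested genes. IDP2 (YLR174W), the cytosolic enzyme that is repressed by glucose, had 0.61, 1.23 and 1.22, all above 0. Its mean of 1.02 ± 0.35 was a 2.03-fold rise with an adjusted p of 0.0451, close to the threshold, and this became 0.0699 without array 2, 0.0514 with the arrays scaled alike and 0.0533 when genes with 2 values were added to the fit.

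Oxoglutarate dehydrogenase and succinyl-CoA ligase follow. KGD1 (YIL125W), the E1 component, had 0.12, -1.35 and 0.37, while KGD2 (YDR148C), the E2 component, had -0.05, -0.07 and -0.12. LPD1 (YFL018C), the E3 component that is shared with pyruvate dehydrogenase, had 0.34, -0.43 and 0.12. None of the 3 passed (adjusted p from 0.629 to 0.985), and on array 2 KGD1 stood apart from the other components. LSC1 (YOR142W), the alpha subunit of succinyl-CoA ligase, had 0.67, 0.65 and 0.70, and LSC2 (YGR244C), the beta subunit, had 0.48, 1.10 and 1.03. All 6 values were above 0. LSC1 averaged 0.68 ± 0.02 and its SD was lower than that of nearly every tested gene, with only 0.0987% of them lower, but its adjusted p was 0.110. LSC2 averaged 0.87 ± 0.34 (adjusted p = 0.0708). Neither change reached 2-fold by its mean.

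Succinate dehydrogenase oxidises succinate and passes the electrons to the respiratory chain. SDH1 (YKL148C), the flavoprotein subunit, had 1.03, -0.20 and 1.26. SDH2 (YLL041C), the iron-sulfur subunit, had 0.29, -1.81 and 0.98. The membrane anchor subunits SDH3 (YKL141W) and SDH4 (YDR178W) complete the enzyme. SDH3 had 0.18, -1.41 and -0.29, and SDH4 had -0.47, -0.89 and 1.93. All 4 subunits were below 0 on array 2, whereas 3 of 4 were above 0 on array 1 and on array 3. None passed with all arrays (adjusted p from 0.196 to 0.832). Without array 2, SDH1 had a mean of 1.14 and passed (adjusted p = 0.0293), and the means of SDH2 and SDH4 were 0.64 and 0.73 (adjusted p of 0.183 and 0.319).

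Fumarase and malate dehydrogenase close the cycle. FUM1 (YPL262W), whose product works in mitochondria and cytosol, had 0.06, 0.88 and 0.50 (mean 0.48 ± 0.41, adjusted p = 0.269). The malate dehydrogenases differ by compartment. MDH1 (YKL085W), the mitochondrial form, had -1.22, 0.77 and -0.79. Its sign on array 2 was opposite to that on the others, and its mean of -0.41 ± 1.05 (adjusted p = 0.502) became -1.01 without array 2, where it was called lower (adjusted p = 0.0476). MDH2 (YOL126C), the cytosolic form used in gluconeogenesis, had 0.81, 1.12 and 1.33. It was the most even of the called genes, with a mean of 1.09 ± 0.26, a 2.12-fold rise (adjusted p = 0.0349). MDH3 (YDL078C), the peroxisomal form, had -0.92, 0.83 and 0.06 and a mean of -0.01 ± 0.88 (adjusted p = 0.991).

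The glyoxylate shunt consists of isocitrate lyase and malate synthase. ICL1 (YER065C), the lyase, had 0.51, -0.24 and 1.01, with a mean of 0.43 ± 0.63 (adjusted p = 0.372). MLS1 (YNL117W), the synthase, had its only value on array 3, where it was 1.99, a 3.96-fold excess with no replicate.

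Pyruvate is drawn into the cycle by carboxylation and leaves it through malic enzyme. PYC1 (YGL062W), a cytosolic pyruvate carboxylase, had 1.05, 0.93 and 2.27. All arrays were above 0 and array 3 was the highest, and its mean of 1.42 ± 0.74 was a 2.67-fold rise (adjusted p = 0.0329). PYC2 is a closely related gene, and whether the PYC1 spot also bound its messenger RNA was not tested. MAE1 (YKL029C), the mitochondrial malic enzyme, had 0.52, -1.65 and 0.80 and a mean of -0.11 ± 1.34 (adjusted p = 0.889). It was below 0 on array 2 only.

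The gluconeogenic genes and ACS1 had no value on array 1, so they entered only a fit of the 5043 genes with values on at least 2 arrays. In that fit 6 of 31 pathway genes were higher and 0 lower, against 5.39% higher and 5.83% lower among all its genes. These shares are not like for like, since 26 of the 31 had 3 values, against 3039 of the 5043. In the fit of genes with 3 values alone, 19.2% of the 26 and 8.36% of the 3039 were higher. The unadjusted counts at a p below 0.05 in the fit of 5043 genes were 686 higher and 788 lower genes. PCK1 (YKR097W), phosphoenolpyruvate carboxykinase, had 1.51 and 2.11 on arrays 2 and 3. It rose 3.51-fold by its mean of 1.81 ± 0.42 (SD, n = 2; adjusted p = 0.0253 in limma). FBP1 (YLR377C), fructose-1,6-bisphosphatase, had 0.05 and 1.38, and its mean of 0.71 ± 0.94 did not pass (adjusted p = 0.310). ACS1 (YAL054C), the acetyl-CoA synthetase repressed by glucose, had 1.04 and 2.12. Its mean of 1.58 ± 0.76 was a 3.00-fold rise (n = 2, adjusted p = 0.0466 in limma, close to the threshold). ACS2 (YLR153C), the synthetase used on glucose, had -0.27, -0.87 and -1.01 and was below 0 on every array. Its mean of -0.72 ± 0.39 did not pass (adjusted p = 0.118), and its 2 spots carried identical values. The calls of PCK1 and ACS1 rest on 2 arrays and a spread borrowed from other genes. When the 3039 genes with 3 values were fitted on arrays 2 and 3 alone, 0 were called higher and 0 lower in limma.

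Of the regulators of the retrograde path, 0 of the 2 tested passed, and 0 had an unadjusted p below 0.05 (limma). RTG1 (YOL067C), one of the paired transcription factors, had -0.19, -0.09 and 0.19 (adjusted p = 0.951). RTG3 (YBL103C), its partner, had 1.37, 0.14 and 0.47, a mean of 0.66 ± 0.63 (adjusted p = 0.186). RTG2 (YGL252C), the sensor that binds Mks1, had 0.28 on array 2 and -0.25 on array 3. Activity of these proteins is set largely by localisation and binding, which arrays do not measure.

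The genes were also grouped by their known control. In the retrograde target group (CIT1, CIT2, ACO1, IDH1, IDH2 and PYC1) 2 of 6 genes, CIT2 and PYC1, rose, where 8.36% of all tested genes did, with array medians of -0.21, 1.31 and 0.30. All 6 were above 0 on array 2, as were 2608 of the 5044 named genes with a value there. On array 1, 2 of the 6 were above 0 (1447 of 3062 named genes), and on array 3, 4 of the 6 (2468 of 5158). In a chosen group of 7 genes repressed by glucose (ICL1, MLS1, MDH2, PCK1, FBP1, ACS1 and IDP2), 15 of 16 values were above 0. The exception was ICL1 on array 2, and 11 of 16 (68.8%) were at least 1. The group is no full list of the pathway genes under such control. Among all named genes 49.2% of values were above 0 and 12.5% were at least 1. Of these 7 genes 4 had no value on array 1, and only 3 entered the test of genes with 3 values, where MDH2 and IDP2 were called. The 15 genes of the mitochondrial cycle all had 3 values, and 0 were called higher and 0 lower in limma, with 2 higher (LSC1 and LSC2) and 0 lower at an unadjusted p below 0.05. Their median was 0.11, and 26 of their 45 values were above 0. These groups were drawn up with earlier results of the same data known, and a group of this size has no test here.

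Enzymes that catalyse one reaction in different compartments or conditions were set against each other within each array. CIT2 exceeded CIT1 by 1.93, 0.65 and 0.62 log2 units on arrays 1, 2 and 3. MDH2 exceeded MDH1 by 2.03, 0.34 and 2.12, and MDH3 exceeded MDH1 by 0.31, 0.06 and 0.85. These 3 differences had the same sign on all arrays, but the exact sign-flip permutation test with 3 arrays cannot give a two-sided p below 0.25, which is the value each reached (0.417 after Benjamini-Hochberg adjustment over the 5 pairs compared). ACS1 exceeded ACS2 by 1.91 and 3.13 on arrays 2 and 3, where the smallest possible p is 0.5 (exact, also 0.5 adjusted). IDP2 minus IDP1 was -1.43, 0.39 and -0.61, so this pair had no common sign (exact p = 0.5, adjusted 0.5). The size of a difference between genes depends on how specifically each spot binds its own transcript, which was not tested.

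**Figure D2:**
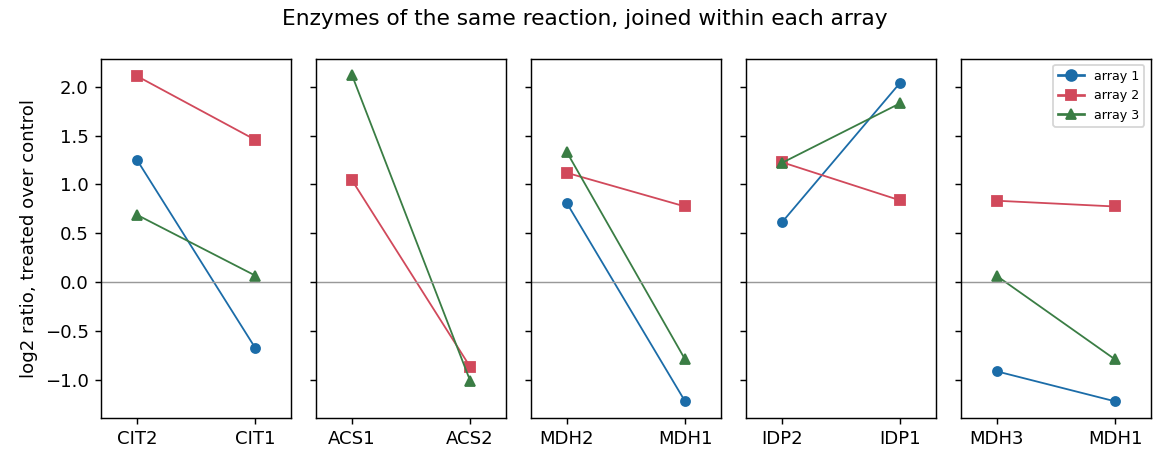
Log2 ratios of treated over control (y axis) for 5 pairs of enzymes of one reaction, joined by a line within each array. The lines from CIT2, ACS1, MDH2 and MDH3 slope down to the second gene of the pair on every array with values for both, and those of IDP2 and IDP1 cross.

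The pathway genes varied widely between arrays. Over the 26 genes the median SD between arrays was 0.68, against 0.47 over all 3039 tested genes. As a description across the 26 genes, which share the arrays and are no replicates of each other, Pearson's r between arrays 1 and 3 was 0.65 (Spearman's rho 0.68). It was 0.03 (rho 0.03) between arrays 1 and 2 and 0.02 (rho 0.01) between arrays 2 and 3. Over all tested genes the same correlations were 0.75, 0.52 and 0.47. The difference of array 2 from the mean of arrays 1 and 3 lay beyond the 5th to 95th percentile range of all genes, -1.54 to 1.31, for 8 of the 26. The genes high on array 2 were 4 of the cycle, IDH1 by 2.32, MDH1 by 1.78, CIT1 by 1.76 and IDH2 by 1.57. At the other end SDH2 stood at -2.45, MAE1 at -2.31, SDH4 at -1.63 and KGD1 at -1.60. The mean kept its sign whichever array was left out for 16 of the 26 genes (61.5%), against 76.6% of all tested genes. It turned for CIT1, IDH1, IDH2, KGD1, LPD1, SDH2, SDH4, MDH3, MAE1 and RTG1. None of these was called, and the called genes, above 0 on every array, could not turn. What distinguishes array 2 is not given in the labels, and its part in these differences was not tested.

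**Figure D3:**
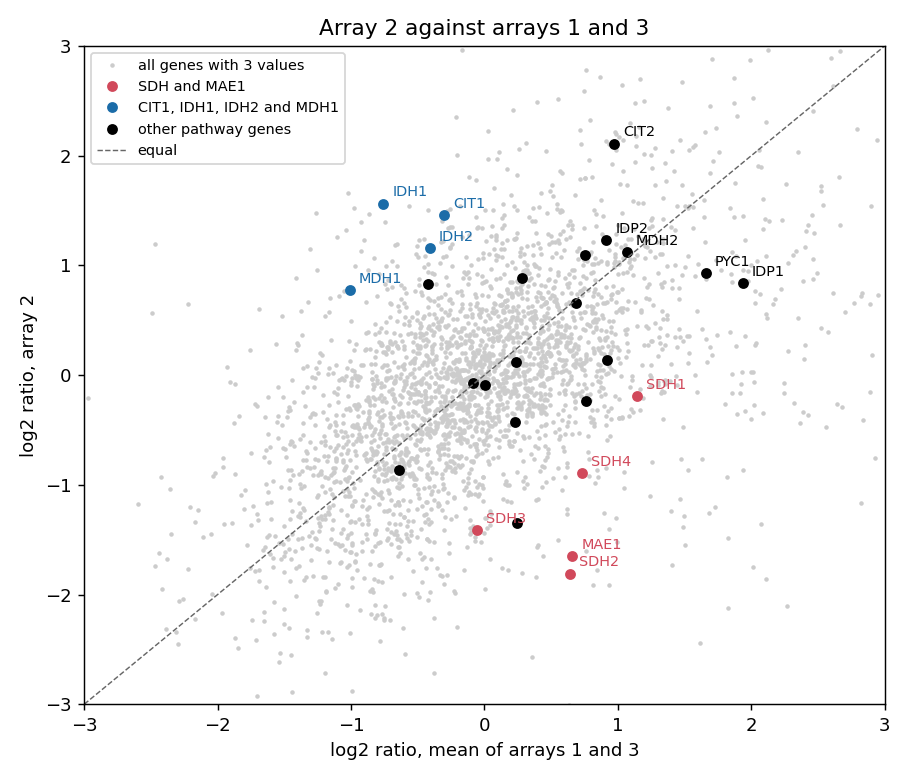
Log2 ratio on array 2 (y axis) against the mean of arrays 1 and 3 (x axis) for the 26 pathway genes (large points) and all genes with 3 values (grey), both axes cut at 3 in either direction, which leaves 47 genes outside. IDH1, IDH2, CIT1 and MDH1 lie above the dashed line of equality and the SDH genes and MAE1 below it.

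Genes around the pathway were taken from lists drawn up from general knowledge of yeast, with earlier results of these data known. Their counts stand beside 8.36% higher and 9.64% lower over all tested genes. With lists of 2 to 9 tested genes, nothing particular to a list is read from these counts. Of 8 pyruvate dehydrogenase genes 6 were tested and 2 rose, 0 fell. PKP2 (YGL059W), a kinase that inactivates the complex, had 2.33, 1.13 and 2.34 and a mean of 1.93 ± 0.69 (adjusted p = 0.0160). PTC6 (YCR079W), a mitochondrial phosphatase of the complex, had 1.00, 0.93 and 1.60 and a mean of 1.18 ± 0.37 (adjusted p = 0.0318). Thus a kinase and a phosphatase of opposite action were both higher. Of the other tested genes, PDA1 and PDB1, the E1 subunits, had means of 0.87 and -0.44 (adjusted p of 0.0700 and 0.349). LAT1 and PKP1 had means of -0.05 and 0.58 (adjusted p of 0.929 and 0.176).

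Of 9 assembly factors and paralogs of succinate dehydrogenase 5 were tested and 2 rose, 0 fell. SHH4 (YLR164W), a paralog of SDH4, had 2.04, 1.36 and 3.29 and a mean of 2.23 ± 0.98 (4.70-fold, adjusted p = 0.0169). SDH5 (YOL071W), which helps attach the flavin to Sdh1, had 0.89, 1.80 and 0.72 and a mean of 1.14 ± 0.58 (adjusted p = 0.0454, and 0.0897 without array 2, 0.0580 with scaled arrays and 0.0515 with genes of 2 values added). Both were above 0 on array 2, where the 4 subunit genes were below it. TCM62, an assembly factor that fell just short of the threshold (limma, adjusted p = 0.0506), had 2.62, 0.22 and 1.94. Its mean of 1.59 ± 1.23 was larger than that of SDH5.

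Of 14 carbon regulators 9 were tested, 2 rose and 1 fell. ADR1 (YDR216W), an activator of genes repressed by glucose, had 0.91, 0.78 and 1.14 (mean 0.95 ± 0.18, adjusted p = 0.0476, and 0.0515 with scaled arrays and 0.0575 with genes of 2 values added). MIG1 (YGL035C), a repressor of such genes, had 0.80, 0.88 and 1.58 (mean 1.09 ± 0.43, adjusted p = 0.0420). GAL83 (YER027C), a beta subunit of the Snf1 kinase, fell to -1.16 ± 0.40, with -1.57, -0.78 and -1.14 (adjusted p = 0.0337). An activator and a repressor that act on genes repressed by glucose were thus both higher, and whether they share targets was not tested.

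Glutamate synthesis draws on 2-oxoglutarate, and of 9 genes around this step 7 were tested, 0 rose and 1 fell. GDH1 (YOR375C), the main NADP-dependent glutamate dehydrogenase, had -1.72, -1.47 and -1.42 and fell to -1.53 ± 0.16, a 2.90-fold decrease (adjusted p = 0.0160). Of the 7 tested genes 3, GDH1 among them, were below 0 on every array and 2 were above 0 on every array. Over all tested genes these shares were 30.6% and 25.8%. Of the pathway genes whose products make 2-oxoglutarate, IDP1 and IDP2 were above 0 on every array. IDH1 and IDH2 had means of 0.02 and 0.11 and were below 0 on arrays 1 and 3. A link between these genes and GDH1 was not tested.

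The other lists had 0 called genes in limma, and DLD3, GID8 and FRD1 alone had an unadjusted p below 0.05 in them, all higher. Of 7 modulators and further targets of the retrograde path 4 were tested. DLD3 (YEL071W), a cytosolic D-lactate dehydrogenase and retrograde target, had the highest mean of that list, 1.00 ± 0.75 (adjusted p = 0.0855), with 0.53, 1.86 and 0.61. Like CIT2 it was above 0 on all arrays and highest on array 2, and so was LST8 of the same list (0.52, 0.93 and 0.15). Of the 4 tested genes 3 were above 0 on all arrays, as were 25.8% of all tested genes. BMH2, a 14-3-3 protein, had the lowest mean of that list, -0.30 ± 0.85. Of the 5 HAP genes 2 were tested, HAP1 at 0.08 ± 0.24 and HAP5, a subunit of the CCAAT-binding complex, at 0.51 ± 0.46. Of 8 genes of the GID ubiquitin ligase, which degrades gluconeogenic enzymes, 2 were tested, GID8 at 0.86 ± 0.59 and VID28 at -0.06 ± 0.35. Of 6 methylcitrate genes and paralogs 3 were tested, from ACH1 at 0.08 ± 0.14 to DAL7, a second malate synthase gene, at 0.55 ± 0.64. Of 5 fumarate and lactate redox genes 4 were tested, from DLD2 at -0.39 ± 0.53 to FRD1, a fumarate reductase, at 0.65 ± 0.12.

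**Figure D4:**
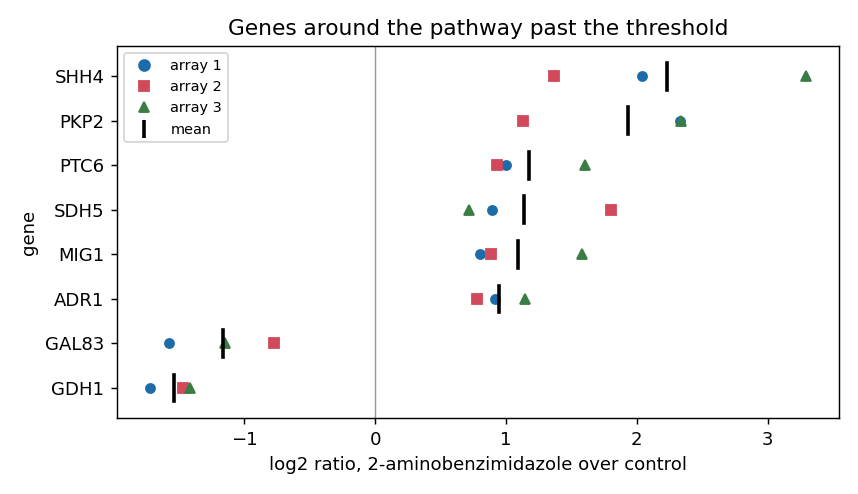
Log2 ratios of treated over control (x axis) on each array, with a black bar at the mean of 3 arrays, for the 8 genes around the pathway that passed the threshold (y axis). The 6 higher genes lie to the right of 0 on every array, and GAL83 and GDH1 to the left.

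Position along the chromosome was compared for the 5 called pathway genes. Of their 10 immediate protein-coding neighbours in the RefSeq gene table, 7 were tested, with means from -1.56 to 0.50. Of the 7, 0 were higher and 1 was lower, beside 8.36% higher and 9.64% lower over all tested genes. With so few neighbours, nothing is read from these counts. The lower gene was CBF5, a pseudouridine synthase of ribosomal RNA and the neighbour of IDP2, with -1.53, -1.26 and -1.87 (adjusted p = 0.0170). It was named after its values were seen.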

How the data were processed

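The deposited table holds a log2 ratio per spot and array (base and direction as stated above). The authors normalised it by LOWESS on spots with flag value 0, per the labels' description. The sources used here give no background correction, scanner or image software, and no intensities were used, so signal over background is unknown and the number of arrays limits the precision. Of 6272 spots, 5308 had 1 symbol, 964 none, and 5304 matched RefSeq R64 by Entrez identifier. Where a gene had several spots, their mean was taken on each array.

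With limma 3.58.1 (R 4.3.3) the mean ratio of every gene was set against 0 (intercept only, eBayes, two-sided, Benjamini-Hochberg over 3039 genes with 3 values, threshold 0.05; prior degrees of freedom 5.31), and the script was tested on simulated data. The named genes were all pathway members, and from each surrounding list the genes past the threshold or, with none, the highest and lowest means. The pyruvate dehydrogenase genes that did not pass, LST8, TCM62 and the neighbour CBF5 were named outside this rule. Members and lists were chosen with earlier results of these data known. Alternatives were centring, scaling, robust variance, array weights, genes on at least 2 arrays, a 1.5-fold null, an adjusted p below 0.01 and leaving out each array. No sequences are shown.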

Additional observations from a re-analysis of the deposited data

How the results depend on the processing

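Leaving out 1 array in turn gave 0 to 4 higher and 0 to 1 lower pathway genes, 0 to 373 higher and 0 to 366 lower genes over all, and a pathway median of 0.23 to 0.46 against 0.20 with all arrays. Without array 1 or array 3, 0 genes passed in limma (635 and 715 of all genes at an unadjusted p below 0.05). Without array 2, IDP1, MDH2 and PYC1 stayed higher, CIT2 and IDP2 did not pass, SDH1 was higher and MDH1 lower. At an adjusted p below 0.01, 0 pathway genes were higher and 23 genes were higher and 13 lower over all. Tested against a 1.5-fold change, 0 pathway genes were higher in limma, and 29 genes were higher and 16 lower over all. At an unadjusted p below 0.05 in that test, 3 of the 26 pathway genes and 233 of all 3039 genes were higher. Centring, robust variance and array weights gave 5 higher and 0 lower pathway genes, scaling 4 and 0, and genes on at least 2 arrays 6 and 0. Every ratio already pairs a treated with a control culture, and with 1 group of arrays there was no further replicate block to fit. Differences between paralogs without each array were added after the data were seen. For the pair whose arrays differed in sign, IDP2 minus IDP1, the mean ran from -1.02 to -0.11.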
